A study of Mus musculus with 13 samples.

Results

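The mitotic spindle and kinetochore genes described here are a list of 40 genes, chosen by name with earlier results of these data known. Their products condense the chromosomes, build the spindle, attach it to the centromeres, check that attachment and divide the cell. Members were found as every probe set whose platform annotation gives 1 gene symbol and whose symbol is on the list. They came to 88 probe sets of 39 genes, out of 45101 probe sets and 18193 annotated genes, and no probe set was named Ccnb1 (cyclin B1), which is not analysed here. RNA was measured on Affymetrix mouse arrays, 1 array for each of 13 mice, in 3 groups of untreated tissue. The Ptch1 MB group held 6 primary medulloblastomas of Ptch1(+/-) mice, tumours that the labels attribute to inactivation of Ptch1. The P7 GNPC group held 3 samples of wild-type cerebellar granule neuron precursor cells from postnatal day 7, and the E16.5 DBS group held 4 samples of wild-type embryonic dorsal brainstem from E16.5. How the precursor cells were isolated, the age of the tumour mice and the deleted piece of Ptch1 are not given in the sources used here. Tissue and age go together in the normal groups, and neither can be told apart from a batch.

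In a dividing cell, Cdk1 bound to its cyclins starts mitosis, condensin and topoisomerase compact the chromosomes, and microtubule motors set up the spindle. Kinetochores on the centromeres catch the microtubules, while the spindle assembly checkpoint keeps Cdc20 from activating the anaphase-promoting complex until all chromosomes are attached. In the postnatal cerebellum, granule neuron precursors divide under Sonic hedgehog signalling, which the receptor Ptch1 holds back, and medulloblastomas that lose Ptch1 arise in this lineage. The promoters of many mitotic genes carry a cell cycle genes homology region (CHR) and CCAAT boxes bound by NF-Y, whereas E2F sites are typical of genes that act in S phase.

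The deposited values were linear MAS5 intensities, and the 13 arrays had medians of 91.3 to 117.5. Atoh1, a transcription factor of granule neuron precursors, read 6383 to 11733 in Ptch1 MB, 826 to 1252 in P7 GNPC and 56.1 to 166.5 in E16.5 DBS. Hoxa5, a caudal hindbrain gene, read at most 17.1 in Ptch1 MB and 9.2 in P7 GNPC, against 5534 to 8334 in E16.5 DBS, so both markers go with the group names. Calb1, a Purkinje cell marker, read 13400 to 16140 in P7 GNPC, 32.5 to 3812 in Ptch1 MB and 2030 to 2497 in E16.5 DBS. The P7 GNPC samples therefore cannot be taken as precursor cells alone. Ptch1 itself read 3454 to 11575 in the tumours, 5563 to 6972 in P7 GNPC and 5569 to 6134 in E16.5 DBS, but where its probes lie relative to the deletion is not known, so it checks nothing. One precursor array stood apart for the mitotic genes. P7 GNPC sample 1 was the lowest of its group for 37 of the 39 members, the exceptions being Bub3 and Kif23. Its summed intensity of 9 granule neuron precursor markers was also the lowest of the 3, at 32561 against 34298 and 36847, and its sum of 15 postmitotic neuron markers the highest, at 83522 against 76430 and 77659. The part of either in the result was not tested. Results that rest on this sample are given with and without it.

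Nearly all mitotic genes were highest in the tumours, intermediate in the precursors and lowest in the embryonic brainstem. Relative to P7 GNPC, the 6 tumours had a median log2 difference of 1.18 over the 39 genes, or 2.27-fold, while the median over all 12270 genes tested was -0.03. Relative to E16.5 DBS the median was 3.72, or 13.2-fold, against 0.00 over all genes. P7 GNPC exceeded E16.5 DBS by a median of 2.46, or 5.52-fold, against 0.04 over all genes. The map of all members by sample shows the 3 steps for every role group, with Bub3, Cdc25b and Kif4 as the palest genes.

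**Figure D1:**
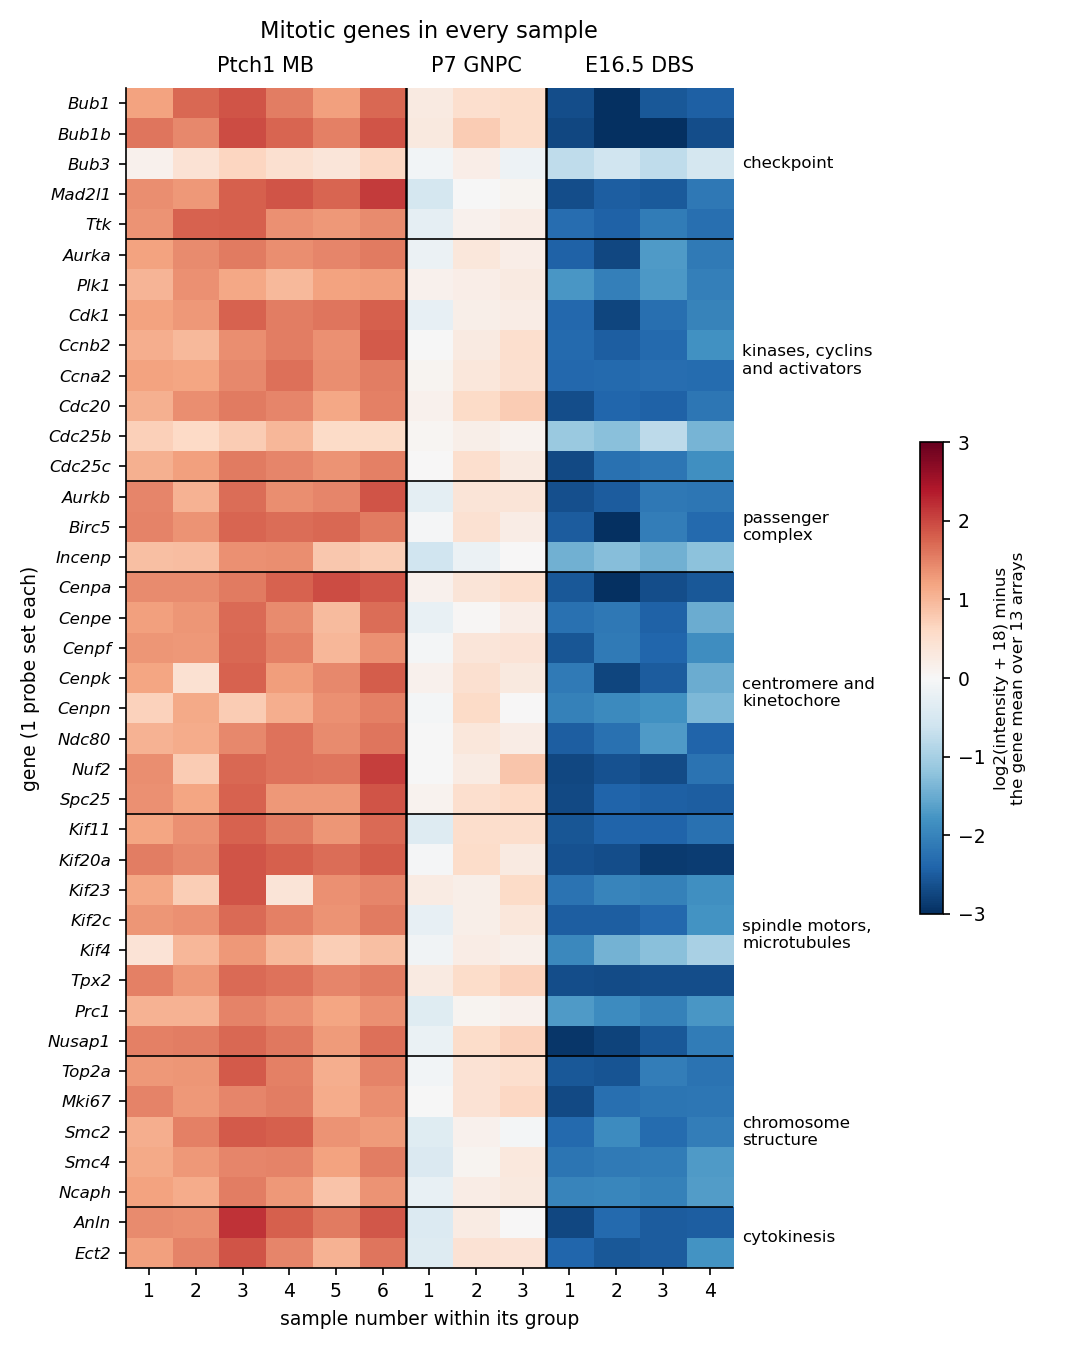
Colour gives log2(intensity + 18) of 1 probe set per gene minus the mean of that gene over the 13 arrays; genes run down the page by role and samples across by group. The 6 Ptch1 MB columns are red, the 3 P7 GNPC columns pale and the 4 E16.5 DBS columns blue, and Bub3 shows the smallest contrast.

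A gene was called when its Benjamini-Hochberg adjusted p in the limma fit was under 0.05 and its difference at least 2-fold. By that rule 32 of 39 members were called higher in Ptch1 MB than in P7 GNPC and 0 lower, where 6.59% of all genes were called higher. In the tumours against E16.5 DBS all 39 members were called higher, where 15.5% of all genes were, and in P7 GNPC against E16.5 DBS 38 of 39, where 8.73% were. The 3 comparisons share arrays, so they are not independent of one another. The lowest tumour lay above the highest precursor sample for 35 members (21.0% of all genes), and the exceptions were Bub3, Cenpk, Nuf2 and Kif23. All 39 members had every tumour above every E16.5 DBS sample (27.2% of all genes) and every precursor sample above every E16.5 DBS sample (28.6% of all genes). Without P7 GNPC sample 1, the tumours' median difference from the precursors was 1.0 and 20 members were called, with Ccnb2, Ccna2, Cdc25c, Cenpf, Cenpk, Spc25, Kif11, Tpx2, Nusap1, Top2a, Mki67 and Ncaph then under the 2-fold minimum, at log2 differences of 0.86 to 1.0. In another fit, probe sets with names ending in _a_at, _s_at or _x_at, which can match several transcripts, were left out. There 19 of 31 measurable members were called, with Bub1b, Cenpa, Spc25, Kif2c, Incenp and Top2a among those lost. The brightest sets of Cenpa, Spc25 and Top2a end in _a_at. In bulk RNA of this kind, fewer dividing cells and less of these RNAs per dividing cell cannot be told apart.

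**Figure D2:**
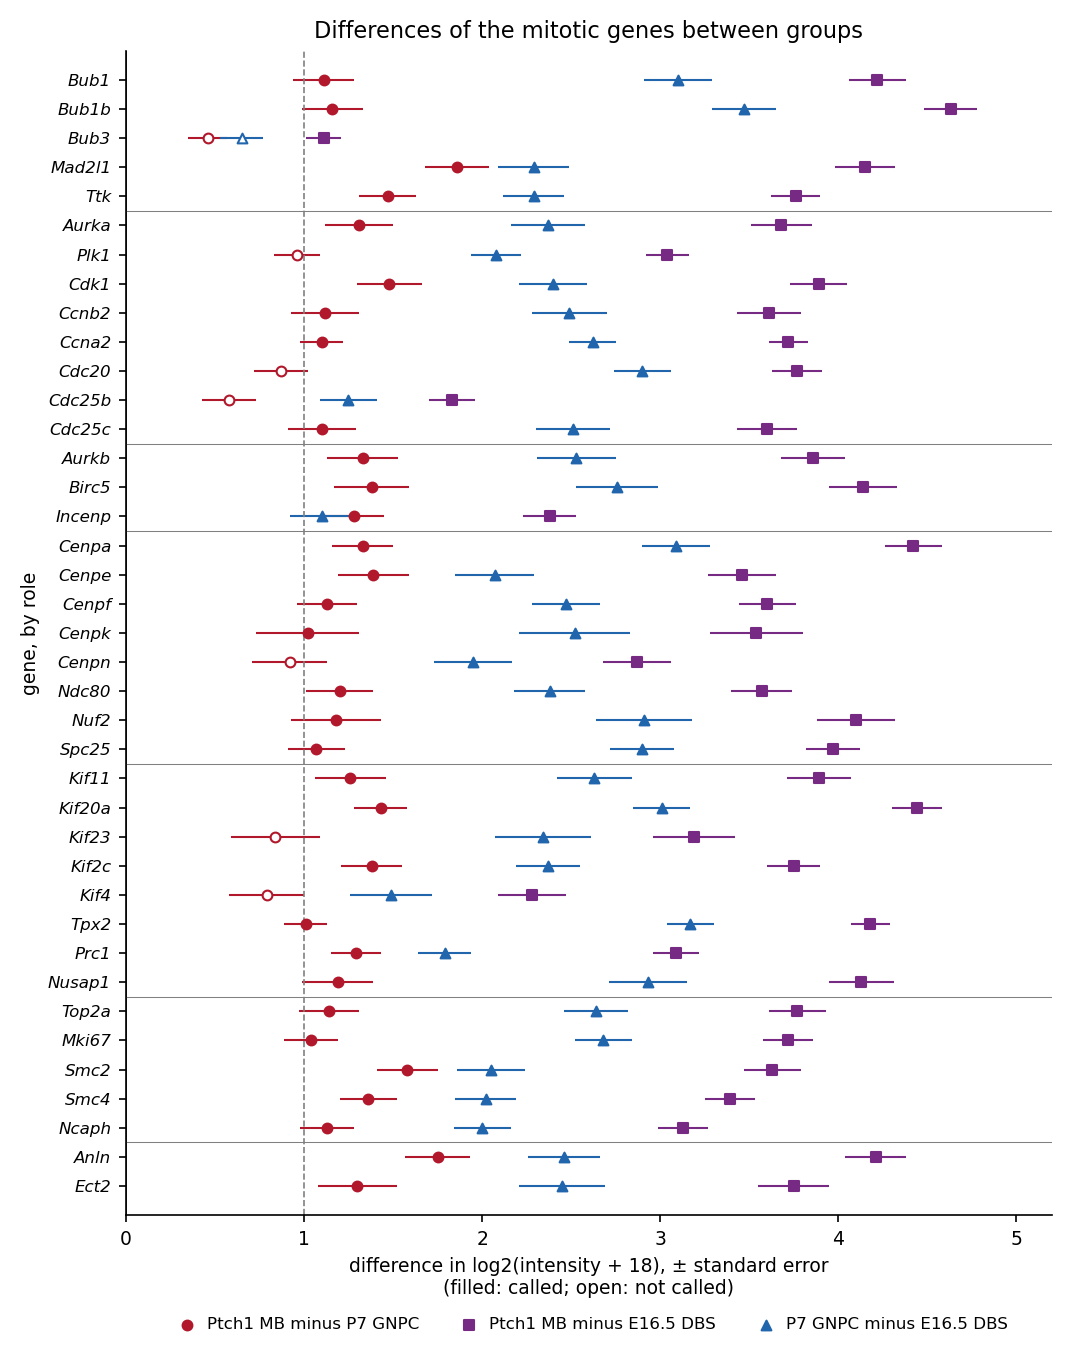
Difference between groups in log2(intensity + 18) for each of the 39 genes, with its standard error; filled symbols were called and the dashed line marks 2-fold. The Ptch1 MB minus P7 GNPC differences run from 0.46 (Bub3) to 1.86 (Mad2l1), and the Ptch1 MB minus E16.5 DBS differences from 1.11 (Bub3) to 4.63 (Bub1b).

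Sums of cell type markers also differed between the groups, not all of them in the order of the mitotic genes or its reverse. The sum of 15 postmitotic neuron markers, of which all 15 were measured and none lay under the pseudocount of 18 in all samples of a group, was 25621 to 46431 in Ptch1 MB, 76430 to 83522 in P7 GNPC and 126115 to 141304 in E16.5 DBS. Purkinje cell markers (9 of 11 measured) summed to 2620 to 17692 in Ptch1 MB, 51757 to 62282 in P7 GNPC and 19008 to 21722 in E16.5 DBS. For granule neuron precursor markers (9 of 10 measured) the sums were 51816 to 55814 in Ptch1 MB, 32561 to 36847 in P7 GNPC and 17941 to 23192 in E16.5 DBS. The sums of these 3 lists separated the 3 groups, with neuron and Purkinje cell markers lowest and granule precursor markers highest in the tumours. Single genes were less uniform. Of 9 granule precursor markers, 4 were called higher in Ptch1 MB than in P7 GNPC and 0 lower (6.59% and 14.2% of all genes). Of 9 Purkinje cell markers, 8 were called lower in Ptch1 MB than in P7 GNPC. Against E16.5 DBS 4 of them were called lower and 1 higher (20.9% and 15.5% of all genes). Astrocyte and Bergmann glia markers (9 of 9 measured) summed to 19832 to 34508 in Ptch1 MB, 56288 to 57715 in P7 GNPC and 43852 to 48103 in E16.5 DBS. Oligodendrocyte markers (8 of 9 measured) summed to 9020 to 19226 in Ptch1 MB, 21618 to 40049 in P7 GNPC and 10939 to 16683 in E16.5 DBS, where Mog was under the pseudocount in all samples. Endothelial markers (8 of 8 measured) summed to 1770 to 3316 in Ptch1 MB, 5416 to 6023 in P7 GNPC and 3930 to 5415 in E16.5 DBS, where Pecam1 was under it. The sums of meningeal and fibroblast markers (7 of 7 measured) were 2021 to 7010 in Ptch1 MB, 11586 to 13098 in P7 GNPC and 6469 to 10521 in E16.5 DBS. These 4 sums were lower in every tumour than in every precursor sample. Microglia and macrophage markers (10 of 10 measured) summed to 7487 to 22896 in the tumours, 5270 to 6443 in P7 GNPC and 5140 to 5364 in E16.5 DBS. Dorsal brainstem markers (9 of 10 measured) summed to 87 to 980 in the tumours and 614 to 726 in P7 GNPC, with Hoxa5 and Hoxc4 under the pseudocount in all samples of both groups, against 23953 to 32485 in E16.5 DBS. As a measure of RNA quality, the log2 ratio of 3′ to 5′ control probe sets was 1.39 ± 0.099 in Ptch1 MB and 1.16 ± 0.045 in P7 GNPC (SD, n = 6 and 3; exact two-sided permutation p = 0.0119, the smallest this design allows, 0.0357 adjusted over 3 comparisons). It was 1.75 ± 0.5 in E16.5 DBS (SD, n = 4; exact permutation p = 0.0952 for Ptch1 MB and 0.0571 for P7 GNPC against it, 0.0952 and 0.0857 adjusted). The part of cell make-up and RNA quality in the mitotic differences was not tested.

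Since the members moved together, their promoters were searched for the motifs named above. RefSeq windows on GRCm38 of 250 bases before to 50 after a gene's start were at hand for 33 of the 40 listed genes, 38 windows in all. A CHR (TTTGAA or TTTAAA) stood on either strand in 76.3% of the members' windows, in 23.4% of the 47 windows of S-phase genes and in 19.3% of the 12822 windows of genes tested on the arrays. CCAAT was found in 78.9% of the members' windows, 57.4% of the S-phase windows and 37.4% of the windows of all genes tested. An E2F site (TTTGGCGC, TTTCCCGC, TTTGCCGC or TTTCGCGC) was in 2.63% of the members' windows, which is the Cdk1 promoter alone, against 38.3% of the S-phase windows and 3.83% of those of all genes tested. The 82 windows of other mitotic genes lay between members and S-phase genes, with CHR in 48.8%, CCAAT in 62.2% and E2F in 13.4%. No member window had matches of different motifs that overlap, and 9 windows of 7 genes (Bub1, Cdc25b, Cenpk, Mad2l1, Ncaph, Nuf2 and Nusap1) held no CHR. A match describes the letters only and shows neither a bound site nor a cause.

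**Figure D3:**
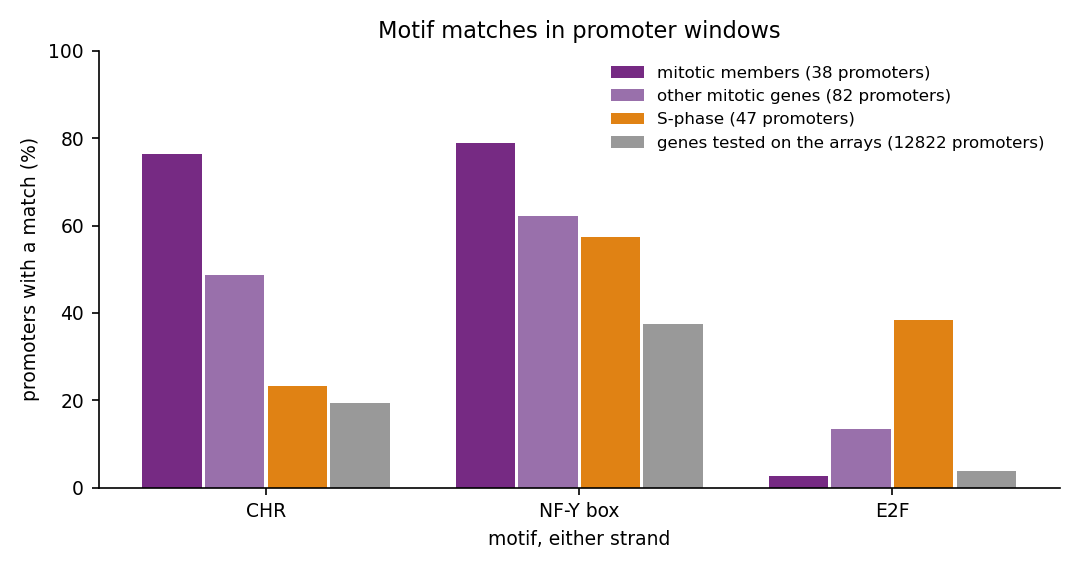
Share of 300-base promoter windows with at least 1 match of each motif on either strand, for the mitotic members, the other mitotic genes, the S-phase genes and all genes tested on the arrays. CHR matches were in 76.3% of the members' windows, 48.8% of those of other mitotic genes and 23.4% of the S-phase windows, and E2F matches in 2.63%, 13.4% and 38.3%.

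The windows below show both patterns, 5′ to 3′ on the gene's strand, with the letters of CHR, CCAAT or E2F matches in capitals. Cdk1, the kinase that starts mitosis, is at chr10:69352863-69353162 (minus strand), with CHR matches starting at positions -71 and -15 from the start (position 0), CCAAT matches at -208, -80 and -48 and the E2F match at -131. Ccnb2, a cyclin partner of Cdk1, is at chr9:70421505-70421804 (minus strand), with CHR matches at -167 and 4 and CCAAT matches at -87, -54 and -21. Bub3, the member with the smallest differences, has 2 windows, of which the one shown is at chr7:131560120-131560419 (plus strand), with a CHR match at -43 and CCAAT matches at -74 and -32. Mad2l1, the member with the largest difference between tumours and precursors, is at chr6:66534971-66535270 (plus strand) and has no match. Dtl, an S-phase gene with a large difference from E16.5 DBS in both other groups, is at chr1:191575495-191575794 (minus strand), with a CCAAT match at -31 and an E2F match at -8.
Cdk1: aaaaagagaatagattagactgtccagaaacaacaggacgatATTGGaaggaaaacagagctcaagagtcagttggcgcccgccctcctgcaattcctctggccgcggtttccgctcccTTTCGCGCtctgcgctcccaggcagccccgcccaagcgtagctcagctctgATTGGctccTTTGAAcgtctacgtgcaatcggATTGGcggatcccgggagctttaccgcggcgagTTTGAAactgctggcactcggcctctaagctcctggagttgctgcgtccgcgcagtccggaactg
Ccnb2: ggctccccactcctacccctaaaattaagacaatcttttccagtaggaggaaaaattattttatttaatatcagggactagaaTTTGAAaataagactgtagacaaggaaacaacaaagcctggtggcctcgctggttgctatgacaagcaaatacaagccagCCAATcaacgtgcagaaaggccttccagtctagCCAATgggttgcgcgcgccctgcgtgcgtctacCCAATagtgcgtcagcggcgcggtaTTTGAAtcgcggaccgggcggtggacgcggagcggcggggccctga
Bub3: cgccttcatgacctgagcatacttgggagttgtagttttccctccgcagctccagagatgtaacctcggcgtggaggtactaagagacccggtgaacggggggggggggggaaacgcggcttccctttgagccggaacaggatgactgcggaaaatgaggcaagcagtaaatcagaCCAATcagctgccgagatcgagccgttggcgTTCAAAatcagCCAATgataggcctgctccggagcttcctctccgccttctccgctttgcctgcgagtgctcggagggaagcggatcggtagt
Mad2l1: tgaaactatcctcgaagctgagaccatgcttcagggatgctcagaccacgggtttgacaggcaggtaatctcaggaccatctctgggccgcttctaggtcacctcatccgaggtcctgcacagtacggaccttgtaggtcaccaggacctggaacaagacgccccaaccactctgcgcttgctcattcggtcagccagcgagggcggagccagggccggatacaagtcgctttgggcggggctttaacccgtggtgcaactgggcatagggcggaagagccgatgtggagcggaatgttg
Dtl: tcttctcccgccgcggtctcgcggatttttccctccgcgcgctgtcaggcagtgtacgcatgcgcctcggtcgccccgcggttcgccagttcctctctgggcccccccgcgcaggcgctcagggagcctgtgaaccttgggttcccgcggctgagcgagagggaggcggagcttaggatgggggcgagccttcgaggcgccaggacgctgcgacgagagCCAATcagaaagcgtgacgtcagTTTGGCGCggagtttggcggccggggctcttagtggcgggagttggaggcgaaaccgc

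Of the 5 spindle assembly checkpoint genes, 4 were called higher in Ptch1 MB than in P7 GNPC, with a median difference of 1.16 over the 5. Mad2l1, which binds Cdc20 to hold back anaphase, read 6852, 9439.8 and 11832 in the tumours (lowest, median and highest of 6), 1895, 2729 and 2931 in P7 GNPC and 420.0, 479, 468 and 612 in E16.5 DBS. Its groups were fully separated, with precursor sample 1 the dimmest of its group. The difference of 1.86 ± 0.18 (log2 ± SE, limma adjusted p = 2.66e-06) from P7 GNPC, 3.62-fold, was the highest among the members, and that from E16.5 DBS was 4.15 ± 0.17 (limma adjusted p = 4.76e-11). Ttk, a kinase that recruits checkpoint proteins to kinetochores, read 1359.5, 1443 and 1928 in Ptch1 MB, 442, 593 and 633 in P7 GNPC and 97.4, 86.4, 112 and 99.2 in E16.5 DBS, a rise of 1.47 ± 0.16 over the precursors (limma adjusted p = 5.17e-06).

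Bub1b, part of the complex that inhibits Cdc20, had the largest tumour difference from brainstem of the members by their brightest probe sets. Its lowest, median and highest tumours read 3329.5, 3900.1 and 4769, the P7 GNPC samples 1474, 2076 and 1766 and the E16.5 DBS samples 167, 127, 109 and 177. No tumour overlapped a precursor sample and no precursor sample a brainstem sample. It rose by 4.63 ± 0.15 in Ptch1 MB over E16.5 DBS (24.7-fold, limma adjusted p = 8.40e-12), by 3.47 ± 0.18 in P7 GNPC over E16.5 DBS (limma adjusted p = 7.30e-09) and by 1.16 ± 0.17 in Ptch1 MB over P7 GNPC (limma adjusted p = 6.18e-05). That rank was not stable, since Kif20a was higher with a pseudocount of 1 (4.83, Bub1b 4.78) and with probe sets averaged (4.44), and the other Bub1b probe sets gave 4.04 and 1.38 in Ptch1 MB over E16.5 DBS. Bub1, the kinase that marks centromeres for checkpoint proteins, read 2022, 2714 and 3274 in the tumours, 1052, 1235 and 1266 in P7 GNPC and 121, 91.7, 134 and 144 in E16.5 DBS. Its difference between P7 GNPC and E16.5 DBS was 3.10 ± 0.19 (8.59-fold, limma adjusted p = 2.71e-08).

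Bub3, which carries Bub1 and Bub1b to kinetochores, was the member with the smallest difference in all 3 comparisons by its brightest probe set. It was also among the brightest, at 8569, 10804 and 12222 in the tumours, 7438, 8967 and 7025 in P7 GNPC and 4610.5, 5181, 4652 and 5395 in E16.5 DBS. The lowest tumour lay under the highest precursor sample, while both groups stood above every brainstem sample. The difference was 0.46 ± 0.11 between Ptch1 MB and P7 GNPC (1.38-fold, limma adjusted p = 4.10e-03), 1.11 ± 0.10 between Ptch1 MB and E16.5 DBS (2.16-fold, adjusted p = 2.46e-07) and 0.65 ± 0.12 between P7 GNPC and E16.5 DBS (1.57-fold, adjusted p = 7.44e-04), so only the second reached 2-fold by the brightest probe set. That call was lost when probe sets ending in _a_at, _s_at or _x_at were left out, where the difference was 0.42. A second Bub3 probe set, at 1743 ± 371 in Ptch1 MB and 1710 ± 289 in P7 GNPC (SD, n = 6 and 3), differed by 0.01 with a limma adjusted p of 0.951. A dimmer one, at 311 to 403 in Ptch1 MB, 227 to 264 in P7 GNPC and 25.3 to 129 in E16.5 DBS, was called in both comparisons with E16.5 DBS, at 2.18 for Ptch1 MB and 1.67 for P7 GNPC (limma adjusted p = 4.32e-06 and 8.05e-04).

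Among 8 measured mitotic kinases, cyclins and their activators, 5 were called higher in the tumours than in P7 GNPC and all 8 in both comparisons with E16.5 DBS. Without P7 GNPC sample 1 the 5 became 2, Cdk1 and Aurka. Cdk1 read 4030.2, 5201 and 6059.7 in Ptch1 MB, 1463, 1967 and 2030.3 in P7 GNPC and 322, 241, 348 and 418 in E16.5 DBS. All 3 groups were separate for Cdk1, and its difference of 1.48 ± 0.18 from P7 GNPC (limma adjusted p = 1.22e-05) was the highest of this role group. Ccnb2 read 2294, 3032 and 4201 in the tumours, 1139, 1394 and 1631 in P7 GNPC and 213, 193, 216 and 314 in E16.5 DBS, with tumour 6 the brightest. Its difference from the precursors was 1.12 ± 0.19 (limma adjusted p = 2.69e-04), and 0.99 without P7 GNPC sample 1. Ccna2, a cyclin of both S phase and early mitosis, rose by 1.10 ± 0.12 over P7 GNPC and by 3.72 ± 0.11 over E16.5 DBS (limma adjusted p = 5.99e-06 and 3.41e-12), and its 4 brainstem values of 382, 385, 399 and 396 were close together. Its dimmer probe set gave 0.64 over P7 GNPC, which was not called, and the call was lost with probe sets averaged (0.87). Aurka, a kinase of centrosomes and spindle poles, was 1558 to 1992 in the tumours, 581, 845 and 768 in P7 GNPC and 109, 85.3, 191 and 137 in E16.5 DBS, a rise of 1.31 ± 0.19 over the precursors (limma adjusted p = 6.53e-05).

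The other 3 of these regulators, Plk1, Cdc20 and Cdc25b, stayed under 2-fold between tumours and precursors although their groups did not overlap. Plk1, a kinase that drives mitotic entry and chromosome attachment, read 1076, 1242 and 1404 in Ptch1 MB, 585, 617 and 650.0 in P7 GNPC and 148, 116, 151 and 117 in E16.5 DBS. The precursor samples were close together and below every tumour, at a difference of 0.96 ± 0.13 (limma adjusted p = 3.30e-05). Cdc20, which activates the anaphase-promoting complex, read 8528, 11058 and 12040.4 in Ptch1 MB, 4487, 6056 and 6930.3 in P7 GNPC and 627, 770.2, 740.1 and 896 in E16.5 DBS, with 0.87 ± 0.15 between Ptch1 MB and P7 GNPC (limma adjusted p = 3.03e-04) and 2.90 ± 0.16 between P7 GNPC and E16.5 DBS. Cdc25b and Cdc25c are phosphatases that activate Cdk1. Cdc25b had 739.5, 783 and 990.4 in Ptch1 MB, 516, 561 and 527 in P7 GNPC and 218, 195, 278 and 177 in E16.5 DBS, one of the smallest contrasts among the members. The differences for Cdc25b were 0.58 ± 0.15, 1.83 ± 0.13 and 1.25 ± 0.16 in Ptch1 MB minus P7 GNPC, Ptch1 MB minus E16.5 DBS and P7 GNPC minus E16.5 DBS (limma adjusted p = 4.21e-03, 1.59e-08 and 2.28e-05). Cdc25c had larger ones by its brightest probe set, 1.10 ± 0.19, 3.60 ± 0.17 and 2.51 ± 0.21, from brainstem values of 28.6, 46.1, 49.3 and 67.3, near the pseudocount of 18. Another Cdc25c probe set gave 0.58, 3.62 and 3.03, the first of them not called and the same as for Cdc25b. The Cdc25c call between tumours and precursors was also lost with probe sets averaged (0.84) and without P7 GNPC sample 1 (0.97).

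All 3 measured genes of the chromosomal passenger complex, which corrects faulty attachments and marks the division plane, were called higher in every comparison. Aurkb, its kinase, read 1163, 1567 and 2114 in Ptch1 MB, 452, 729.7 and 735 in P7 GNPC and 74.4, 82.8, 112 and 109 in E16.5 DBS. Birc5 (survivin), which brings the complex to centromeres, read 2562, 3113 and 3396 in Ptch1 MB, 969.8, 1376 and 1159.9 in P7 GNPC and 161, 85.6, 222 and 185 in E16.5 DBS. The tumour differences from P7 GNPC were 1.33 ± 0.20 for Aurkb and 1.38 ± 0.21 for Birc5 (limma adjusted p = 9.04e-05 and 1.05e-04), and no groups overlapped for either gene. Incenp, the scaffold of the complex, differed from the other 2 in its brainstem level, reading 5837, 6573 and 9212 in Ptch1 MB, 2289, 3081 and 3527 in P7 GNPC and 1262, 1422, 1268 and 1477 in E16.5 DBS. Its tumour difference from the precursors, 1.28 ± 0.17, was close to those of its partners, and its difference of 1.10 ± 0.18 between P7 GNPC and E16.5 DBS (limma adjusted p = 2.10e-04) was the second lowest of all members. Both rest on a probe set of the kind that can cross-hybridise. Another Incenp probe set gave 0.57 between Ptch1 MB and P7 GNPC, which was not called, and 1.73 between P7 GNPC and E16.5 DBS. A dimmer one gave 1.04 between Ptch1 MB and P7 GNPC, which was called (limma adjusted p = 1.14e-02), and 0.79 between P7 GNPC and E16.5 DBS, which was not. By the brightest probe set the P7 GNPC call over E16.5 DBS was lost without P7 GNPC sample 3 (0.96) and with all arrays scaled to the same median (0.98).

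Of 8 centromere and kinetochore genes, 7 were called higher in Ptch1 MB than in P7 GNPC, with a median of 1.16, and all 8 were called in both comparisons with E16.5 DBS. Without P7 GNPC sample 1 the 7 became 4, as Cenpf, Cenpk and Spc25 were then under 2-fold. Cenpa, the histone H3 variant of centromeres, read 3761, 4489 and 5511 in Ptch1 MB, 1534, 1825 and 1991 in P7 GNPC and 224, 132, 205 and 224 in E16.5 DBS. Every tumour stood above every precursor sample and every precursor sample above every brainstem sample. It rose by 1.33 ± 0.17 over P7 GNPC and by 4.42 ± 0.16 over E16.5 DBS (limma adjusted p = 2.80e-05 and 1.97e-11). A dimmer Cenpa probe set, however, read 14.6 to 412.6 in the tumours and 211.7 to 221.9 in P7 GNPC, a difference of -0.12 (limma adjusted p = 0.894). Cenpe, a kinetochore motor, had 1440.2, 1928 and 2428 in Ptch1 MB, 624.9, 748 and 841 in P7 GNPC and 140.1, 153, 122 and 248 in E16.5 DBS, and its 2 probe sets gave the same tumour difference from the precursors, 1.39. Cenpf, a large protein of the outer kinetochore, rose by 1.13 ± 0.17 over P7 GNPC (limma adjusted p = 1.05e-04) at 3929.9 to 6525 in the tumours and 1902, 2546 and 2632 in P7 GNPC. Its dimmer probe sets gave -0.0 and 0.36 (limma adjusted p = 0.989 and 0.284), neither called. With probe sets averaged the Cenpf difference was 0.5 and the call was lost.

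The members of the Ndc80 complex, which holds microtubule ends at the kinetochore, were Ndc80, Nuf2 and Spc25. Ndc80 read 920.3, 1220.0 and 1388 in Ptch1 MB, 435, 557 and 516 in P7 GNPC and 64.3, 79.7, 123 and 69.2 in E16.5 DBS. Nuf2 read 1111, 2032 and 2804 in Ptch1 MB, 642, 772 and 1162 in P7 GNPC and 81.8, 90.8, 86.5 and 126 in E16.5 DBS, with the dimmest tumour, sample 2, under the brightest precursor sample. Spc25 ranged from 3879.6 to 6304 in the tumours and read 1801, 2393 and 2543 in P7 GNPC and 245, 305, 294 and 289.5 in E16.5 DBS. The 3 subunits differed by 1.20 ± 0.19, 1.18 ± 0.25 and 1.07 ± 0.16 between Ptch1 MB and P7 GNPC (limma adjusted p = 1.31e-04, 1.14e-03 and 1.04e-04), within their standard errors of one another. Their differences from E16.5 DBS in the tumours were 3.57, 4.10 and 3.97. Cenpk and Cenpn belong to the network that stays on the centromere through the cell cycle. Cenpk had the widest standard error of all members between tumours and precursors, 1.02 ± 0.29 (limma adjusted p = 9.20e-03), with tumour 2 at 1438 inside the precursor values of 1148, 1473 and 1277. Its call was lost at 0.92 to 1.0 without tumour 3, 5 or 6 or P7 GNPC sample 1, with a pseudocount of 64 and under quantile normalization, and at 0.73 with its probe sets averaged. Cenpn, at 1366, 1842 and 2449 in Ptch1 MB, 804, 1260.5 and 852 in P7 GNPC and 193, 212, 226 and 317 in E16.5 DBS, was not called between tumours and precursors, at 0.92 ± 0.21 (limma adjusted p = 2.10e-03). Its dimmer probe set was called, at 1.31 (limma adjusted p = 7.22e-05), and so was Cenpn with its probe sets averaged.

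Among 8 spindle motors and microtubule proteins, 6 were called higher in the tumours than in P7 GNPC, at a median of 1.23, and all 8 in both comparisons with E16.5 DBS. Without P7 GNPC sample 1 the 6 became 3, with Kif11 at 0.95, Tpx2 at 0.89 and Nusap1 at 0.92. Kif20a, a kinesin of the central spindle, read 1250.4, 1539 and 1716 in Ptch1 MB, 439, 669.8 and 541 in P7 GNPC and 58.7, 56.0, 45.8 and 46.6 in E16.5 DBS. Its groups lay far apart, and its rise of 4.44 ± 0.14 in Ptch1 MB over E16.5 DBS (21.7-fold, limma adjusted p = 6.83e-12) was the second highest of the members by their brightest probe sets. Tpx2, which activates Aurka and helps nucleate spindle microtubules, read 2752, 3205 and 3597 in Ptch1 MB, 1338, 1635 and 1799 in P7 GNPC and 161, 158, 159.6 and 158 in E16.5 DBS, the brainstem samples having the smallest spread of any member. It rose by 3.17 ± 0.13 in P7 GNPC over E16.5 DBS (limma adjusted p = 3.99e-10) and by 1.01 ± 0.12 in Ptch1 MB over P7 GNPC (limma adjusted p = 9.87e-06), a difference just past 2-fold. Its dimmer probe sets gave 0.95, 0.28 and 0.09 in Ptch1 MB over P7 GNPC, none of them called, and the call was lost with probe sets averaged (0.58). Kif11, the motor that pushes spindle poles apart, read 1655 to 2507 in Ptch1 MB and 549.7, 1058 and 1054 in P7 GNPC, where sample 1 was far below the other two. Kif2c, which removes wrongly attached microtubules, and Prc1, which bundles the central spindle, rose by 1.38 ± 0.17 and 1.29 ± 0.14 over P7 GNPC (limma adjusted p = 1.46e-05 and 6.00e-06), and Nusap1, a spindle-associated protein, by 1.19 ± 0.20 (limma adjusted p = 2.11e-04). The Kif2c value comes from a probe set that can cross-hybridise, and its 3 others gave 0.54, 0.74 and -0.12, none of them called.

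Kif23 and Kif4 were the motors not called between tumours and precursors. Kif23, part of the centralspindlin complex of cytokinesis, had the widest spread among tumours of any member, at 1968, 1462, 3250.0, 1143, 2267 and 2429 in tumours 1 to 6, against 1029.6, 970.2 and 1303 in P7 GNPC and 173, 206, 198 and 228 in E16.5 DBS. Tumour 4 lay among the precursor samples and tumour 3 far above them, and the difference was 0.84 ± 0.25 (limma adjusted p = 1.21e-02). Kif4, a motor that binds chromosome arms, read 572, 865, 1076, 854, 724 and 804 in tumours 1 to 6, 393, 500.2 and 477 in P7 GNPC and 97.4, 149, 167 and 207 in E16.5 DBS. The groups were separate but close, at 0.79 ± 0.21 between Ptch1 MB and P7 GNPC and 1.49 ± 0.23 between P7 GNPC and E16.5 DBS (limma adjusted p = 6.14e-03 and 1.25e-04). Scaling all arrays to the same median, which shifted the median of all genes to 0.21, brought Plk1, Cdc20, Cenpn, Kif23 and Kif4 past 2-fold between tumours and precursors.

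All 5 genes of chromosome structure were called higher in every comparison, at medians of 1.14 for Ptch1 MB minus P7 GNPC, 3.63 for Ptch1 MB minus E16.5 DBS and 2.05 for P7 GNPC minus E16.5 DBS. Without P7 GNPC sample 1, only Smc2 and Smc4, 2 of the 5, were called against P7 GNPC. Smc2 and Smc4 form the arms of condensin. Smc2 read 6938, 8780.5 and 11687 in Ptch1 MB, 2494, 3549 and 3111 in P7 GNPC and 626, 865, 636 and 757 in E16.5 DBS. It had the third highest tumour difference from the precursors, 1.58 ± 0.17 (2.99-fold, limma adjusted p = 5.94e-06), and all 5 of its probe sets were called, at 1.54 to 1.96. Smc4 read 7587, 8986 and 9963 in Ptch1 MB, 2547, 3653 and 4239 in P7 GNPC and 735, 769.9, 784 and 1043 in E16.5 DBS, a rise of 1.36 ± 0.16 over P7 GNPC, and Ncaph, a condensin I subunit, rose by 1.13 ± 0.15 (limma adjusted p = 9.08e-06 and 3.52e-05). Mki67, the proliferation antigen that coats mitotic chromosomes, read 10249, 12806 and 13671 in Ptch1 MB, 4716, 6379.7 and 7239 in P7 GNPC and 706, 968, 1019 and 1031 in E16.5 DBS. Top2a, which untangles DNA, read 7088, 8880.5 and 11932 in Ptch1 MB, 3179, 4493 and 4739 in P7 GNPC and 556, 543, 783 and 709.6 in E16.5 DBS. Both had separate groups, and with Ncaph they were under 2-fold between tumours and precursors without P7 GNPC sample 1, at 0.86 for Mki67, 0.96 for Top2a and 0.98 for Ncaph.

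Of the cytokinesis genes, Anln, which links actin and myosin in the contractile ring, read 2378, 2921 and 4093 in Ptch1 MB, 669, 1077 and 909 in P7 GNPC and 119, 164, 144 and 147 in E16.5 DBS. Its difference from P7 GNPC, 1.75 ± 0.18 (3.36-fold, limma adjusted p = 5.03e-06), was the second highest of the members. Ect2, the exchange factor that switches on RhoA at the division plane, rose by 1.30 ± 0.22 over P7 GNPC (limma adjusted p = 2.57e-04) at 2514 to 4558 in the tumours and 935, 1639.7 and 1632 in the precursors. For both genes precursor sample 1 was the dimmest of its group, and the groups did not overlap.

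Several members had more than 1 probe set, and these did not always move alike. Of the 88 probe sets, 82 passed the filter on dim signals, and 27 genes had more than 1. In Ptch1 MB against P7 GNPC 48 of the 82 were called higher and 0 lower, at a median of 1.10, where 5.87% of all probe sets were called higher. In Ptch1 MB against E16.5 DBS 77 were called (16.1% of all probe sets), and in P7 GNPC against E16.5 DBS 69 (9.11%). The 43 probe sets that were not the brightest of their gene had 16, 38 and 31 calls, all of them higher. The lowest between Ptch1 MB and P7 GNPC were a dim probe set of Bub3 (-0.16) and those of Cenpa and Kif2c (-0.12 each), none of them called, while a second Bub1 probe set gave 1.97 against 1.11 for the brighter one. Gene values in this text are those of the brightest probe set.

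Between tumours and precursors, genes of DNA replication had the same median difference as the mitotic genes. A list of 50 S-phase genes, of which 48 were tested, had 35 called higher and 0 lower, with a median of 1.18, so that the member median stood 0.01 above it. The highest of them were Mcm2, a subunit of the replicative helicase, at 2.09 ± 0.25 (4322 ± 1300 in Ptch1 MB and 973 ± 169 in P7 GNPC, SD), and Cdc6, which loads that helicase, at 1.90 ± 0.17 (limma adjusted p = 1.36e-05 and 1.23e-06). The lowest called were Nasp, a histone chaperone, at 1.0, and Dut, which keeps uracil out of DNA, at 1.01. Without P7 GNPC sample 1, the member median was 0.11 under the S-phase median (1.0 and 1.11).

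Against the embryonic brainstem the lists separated. In Ptch1 MB minus E16.5 DBS 46 of 48 S-phase genes were called higher, with a median of 2.58, so the member median of 3.72 stood 1.14 above it. The middle 50% of the members ran from 3.42 to 4.03 and that of the S-phase genes from 1.82 to 3.31. In P7 GNPC minus E16.5 DBS 29 of 48 S-phase genes were called, with a median of 1.32, and the member median of 2.46 stood 1.15 above it. The 84 other mitotic genes described below had medians of 2.50 and 1.27 in these 2 comparisons, not above those of the S-phase genes. The gap was thus seen for the 39 members and not for the median of this wider list. The wider list was mixed, with a middle 50% of 1.16 to 3.43 in Ptch1 MB minus E16.5 DBS. The members were chosen with earlier results known, and the part of list make-up in the gap was not tested. Some S-phase genes reached the range of the mitotic genes, such as Tk1, thymidine kinase, at 4.80 ± 0.19 in Ptch1 MB over E16.5 DBS (1866 ± 362 and 49.2 ± 11, SD, n = 6 and 4) and Dtl, which directs destruction of the replication licensing factor Cdt1, at 4.27 ± 0.15 (limma adjusted p = 4.71e-11 and 1.23e-11). The least changed among those called were Rfc2, a clamp loader subunit, at 1.03 and Orc6, of the origin recognition complex, at 1.10. Averaging all probe sets of each gene left gaps of 0.82 in both comparisons with E16.5 DBS.

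Sample by sample, the gap between the lists overlapped between tumours and precursors. Relative to the E16.5 DBS mean of each gene, the member median was 3.53, 3.64, 3.98, 3.78, 3.62 and 3.84 in tumours 1 to 6, 2.10, 2.60 and 2.60 in P7 GNPC and -0.16 to 0.20 in E16.5 DBS. The S-phase median was 2.34 to 2.78 in Ptch1 MB, 1.28, 1.35 and 1.40 in P7 GNPC and -0.09 to 0.10 in E16.5 DBS. Neither list overlapped between groups. The member median minus the S-phase median was 0.91 to 1.38 in the tumours and 0.82 to 1.25 in P7 GNPC, which overlap, and -0.09 to 0.10 in E16.5 DBS, the baseline of both. Precursor sample 1 had the smallest gap of its group, with a member median below those of the other two. Relative to the P7 GNPC mean of each gene, its S-phase median was also the lowest of the group, at -0.16 against 0.09 and 0.11.

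**Figure D4:**
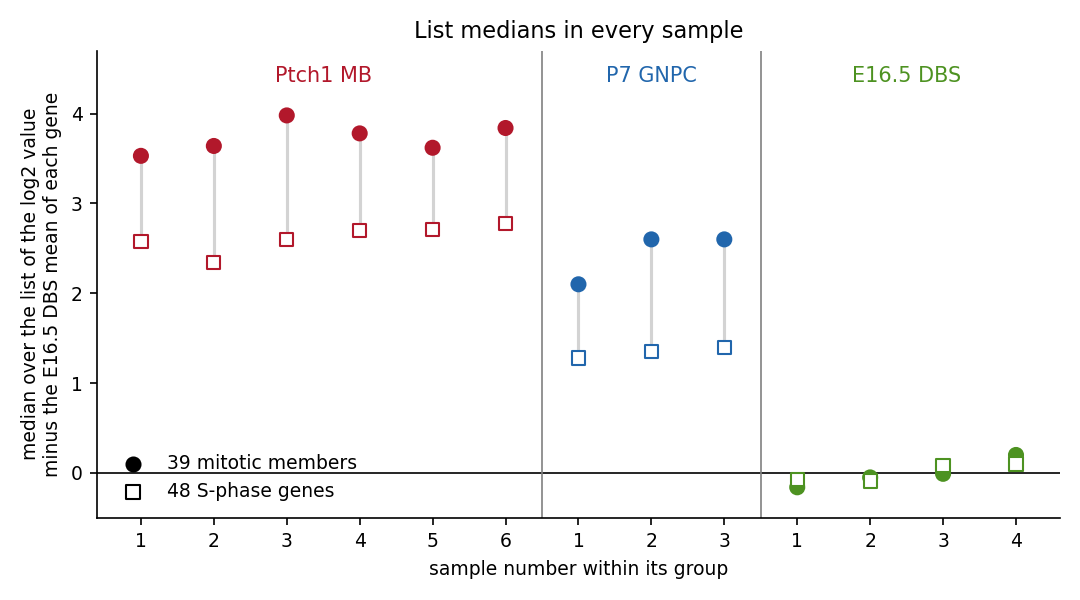
Median over 39 mitotic members (circles) and over 48 S-phase genes (squares) of each sample's log2 value minus the E16.5 DBS mean of the gene. Circles stand above squares by 0.91 to 1.38 in the 6 tumours and by 0.82 to 1.25 in the 3 precursor samples.

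Other genes of mitosis, 84 tested of 89 listed, moved in the same direction with more exceptions. In Ptch1 MB minus P7 GNPC 49 were called higher and 0 lower, with a median of 1.11, led by Ckap2l (1.91 ± 0.25) and Ckap2 (1.75 ± 0.19), spindle proteins related to each other (limma adjusted p = 3.28e-05 and 5.37e-06). In Ptch1 MB minus E16.5 DBS 66 were called higher and 2 lower, with a median of 2.50, and in P7 GNPC minus E16.5 DBS 51 higher and 1 lower, with a median of 1.27. The centrosomal kinase Nek2 rose most in Ptch1 MB over E16.5 DBS, by 4.66 ± 0.19 (3295 ± 416 and 120.2 ± 54.5, SD, n = 6 and 4). Zwint, which binds the kinetochore scaffold Knl1, fell by 1.13 on the log2 scale in Ptch1 MB against E16.5 DBS, at 7078 ± 1000 and 15390 ± 1400 (limma adjusted p = 2.26e-07). Cit, the citron kinase of cytokinesis, also fell by 1.13 (344.8 ± 82.8 and 784.1 ± 234; limma adjusted p = 1.11e-03), and by 1.60 in P7 GNPC against E16.5 DBS. Against E16.5 DBS, the postmitotic neuron sums given above moved in the same direction as these 2 genes. Between Ptch1 MB and P7 GNPC they did not follow Cit, which averaged 344.8 ± 82.8 and 253.6 ± 115 while the neuron sums were lower in the tumours. The part of neurons in these values was not tested.

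**Figure D5:**
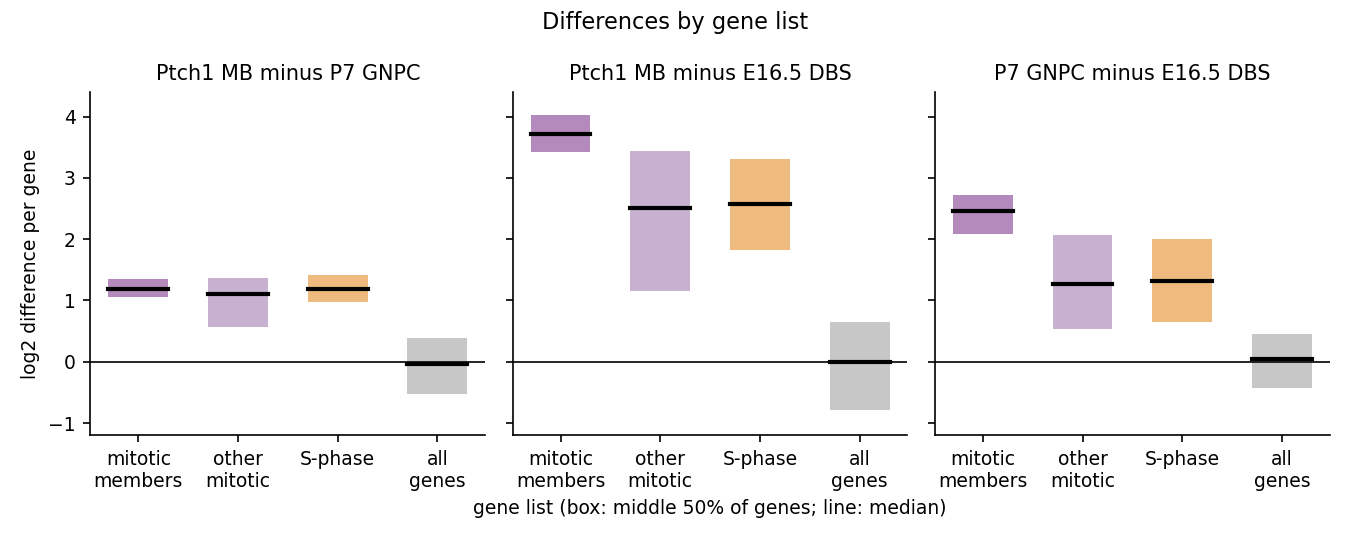
Box: middle 50% of the log2 differences per gene in each list; line: median. In Ptch1 MB minus P7 GNPC the medians of mitotic members, other mitotic genes and S-phase genes are 1.18, 1.11 and 1.18, and in Ptch1 MB minus E16.5 DBS they are 3.72, 2.50 and 2.58, against -0.03 and 0.00 over all genes.

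Within groups, a few samples held most of the highest and lowest member values. Tumour 3 had the highest value of its group for 23 of 39 members and tumour 6 for 9, while tumour 2 was lowest for 14 and tumour 1 for 13. Tumour 3 also had the lowest neuron sum (25621, the others 36837 to 46431) and the lowest microglia sum (7487, the others 13583 to 22896), and the part of these in its mitotic values was not tested. Precursor sample 3 was highest for 24 members and sample 2 for 15. Brainstem sample 4 was highest for 23, and sample 1 lowest for 20. The median SD of a member over samples was 0.24 in Ptch1 MB, 0.26 in P7 GNPC and 0.25 in E16.5 DBS on the log2 scale, against 0.27, 0.15 and 0.21 over all genes. The spread was narrowest for Aurka in the tumours (0.13), Cdc25b in P7 GNPC (0.06) and Tpx2 in E16.5 DBS (0.01), and widest for Kif23 (0.53), Kif11 (0.53) and Cenpk (0.55).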

How the data were processed

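RNA of 13 mouse samples was measured on 1 Affymetrix array each, labelled by 2-cycle amplification per the labels' protocols. The deposited intensity values are linear and come from MAS5, per the submitters' processing notes, which give no version. Every array has a mean of 500 after 2% of values are trimmed at each end. Of 45101 probe sets, 34945 have 1 gene symbol in the platform annotation, 932 have several and 9160 have none, and 64 are controls. Probe sets with 1 symbol that exceeded the median of their array in at least 3 arrays were kept, and the one with the highest mean stood for its gene, which gave 12270 genes.

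Values were tested as log2(intensity + 18), where 18 is the 20th percentile, so the differences of dim genes are understated. One limma fit (version 3.58.1 in R 4.3.3; eBayes with its trend option; degrees of freedom 10 residual, 4.47 prior) covered all 13 samples, with Benjamini-Hochberg adjustment over all genes, and was tested on simulated data. The number of arrays limits the precision. Each sample came from a different mouse, per the series' design text, and sample numbers are only names in accession order that pair no samples. Every member was named, and values by sample (for the 6 tumours mostly the lowest, median and highest) were given for those with the 3 highest and lowest differences, those not called and 1 to 2 of each role. For the other lists only the 2 highest and lowest called genes were named. The members and lists were chosen with earlier results of these data known. Promoters came from RefSeq. Alternatives were pseudocounts of 1 and 64, no filter, 2 other scalings, other choices of probe set, no minimum fold, no trend, only the groups compared, and leaving out each sample. The Ctnnb1 tumours that the series describes were not analysed here.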

Additional observations from a re-analysis of the deposited data

Results flagged for a closer look

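In the embryonic brainstem, 1 sample stood apart for 3 members. E16.5 DBS sample 4 read 328.6 for Kif2c, where the other 3 samples of its group read 198.3 to 219.1. It read 1043.3 for Smc4, against 734.6 to 783.7, and 544.4 for Ncaph, against 422.0 to 442.7. Its gap to the nearest sample took up 0.84 of the range of the group for Kif2c, 0.841 for Smc4 and 0.831 for Ncaph. Values of 39 members were examined in both groups of 4 or more samples, 78 sets of values in all. Chance alone would mark about 1 in 20 of these sets if they were independent, and the 3 marked do not exceed that rate. The members share arrays, however, and all 3 marks fall on E16.5 DBS sample 4, so the count cannot tell whether chance gave them. The same sample was the highest of its group for 23 of 39 members. Leaving it out changed the call of no member in any comparison.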

How the results depend on the processing

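Of the 39 members, 32 were called higher in Ptch1 MB than in P7 GNPC, and 19 of 31 without probe sets ending in _a_at, _s_at or _x_at. The count was 20 to 33 when each sample was left out in turn, the lowest being without P7 GNPC sample 1. Without probe sets ending in _a_at, _s_at or _x_at the Cenpa difference was -0.12, because a dimmer probe set took its place. Averaging the probe sets of each gene gave 24 calls, and scaling arrays to the same median 37, with 1308 genes higher and 1376 lower in place of 809 and 1743. The member median minus the S-phase median was -0.11 to 0.02 between Ptch1 MB and P7 GNPC when each sample was left out, and 0.82 in both comparisons with E16.5 DBS with probe sets averaged. With no minimum fold, 6061, 8642 and 5414 genes were called in Ptch1 MB minus P7 GNPC, Ptch1 MB minus E16.5 DBS and P7 GNPC minus E16.5 DBS, in place of 2552, 4457 and 2259. Beyond the losses of Bub3, Incenp and Spc25 calls (Spc25 at 0.91 in P7 GNPC minus E16.5 DBS without probe sets ending in _a_at, _s_at or _x_at), no alternative ended a call against E16.5 DBS. No paired analysis was possible because replicate numbers only follow accession order. Array number, probe cross-hybridisation and signals near the pseudocount limit what can be told.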
